A study of Mus musculus with 6 samples.

Results

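Transcripts of 41 genes of sphingolipid synthesis and breakdown were examined in unstimulated macrophages grown from bone marrow (BMDMs), of either wild-type mice or mice lacking *Scd2* in myeloid cells. The genes were chosen by symbol, and all 41 were found among the 40481 genes of the count table. RNA was sequenced from 3 wild-type and 3 *Scd2*-m/-m samples, 1 poly(A)-selected library each. In the *Scd2*-m/-m mice a lysozyme M-Cre transgene, active in cells of the myelomonocytic lineage, deletes a floxed *Scd2*, and the marrow of both genotypes was cultured in medium conditioned with CMG cells and received no stimulus. Mice in the study were 2 to 5 months old. Whether the wild-type mice carried the Cre transgene or the floxed alleles, and whether the 3 samples of a genotype came from separate mice, is not stated in the labels or methods, so p-values measure the spread between these samples, which may be technical.

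Sphingolipids are built on ceramide, a long-chain base joined to a fatty acid. Ceramide is made in the endoplasmic reticulum and is then turned into sphingomyelin, into ceramide 1-phosphate, or into glucosylceramide and the larger glycosphingolipids. They are taken apart in the lysosome by hydrolases that work with small activator proteins, down to sphingosine, which can be reused or phosphorylated to the signaling lipid sphingosine 1-phosphate. Macrophages carry a heavy load of this breakdown because they digest the membranes of engulfed cells, and an inherited lack of several of these hydrolases fills macrophages with undigested lipid. SCD2 desaturates long-chain fatty acids and is not itself part of this pathway.

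The libraries held between 46285176 and 57629638 counts on genes, and the totals of the genotypes overlapped. *Scd2*, the targeted gene, had 66.9, 77.8 and 62.7 counts scaled to library size (CPM) in the wild-type libraries and 59.5, 38.0 and 39.8 CPM in the *Scd2*-m/-m libraries. Every *Scd2*-m/-m library lay below every wild-type library, but the fall of 0.59 on the log2 scale (SE 0.19) had a false discovery rate (FDR) of 0.100 in edgeR's quasi-likelihood test, and leaving out *Scd2*-m/-m replicate 1 gave a log2 fold change of -0.83 with an FDR of 8.87e-05. Counts cover the whole gene and not the deleted stretch alone. *Xist* had between 658 and 842 CPM in all 6 libraries, while the Y-linked *Ddx3y*, *Eif2s3y* and *Kdm5d* had 0 counts and *Uty* had 6, 0 and 5 counts in the wild-type libraries and 0 in the others. Of 8 macrophage markers 1 rose (*Cd68*) and 4 fell. Their summed level went from between 37461 and 38369 CPM to between 21448 and 21968 CPM, mostly through *Lyz2*, which encodes the lysozyme M after which the Cre transgene is named and had a log2 fold change of -1.33. The other 7 markers summed to between 15141 and 15362 CPM in wild-type and between 12513 and 12914 CPM in *Scd2*-m/-m libraries. All 10 cell division genes rose, from sums of 49.6 to 59.5 CPM to sums of 150 to 160 CPM. Neutrophil and monocyte or progenitor markers were low in both genotypes and higher in *Scd2*-m/-m macrophages, 6 of 8 tested in each list, with sums of 11.2 to 11.7 CPM against 26.7 to 34.5 CPM and of 47.4 to 67.4 CPM against 145 to 206 CPM. Among the neutrophil markers *Ly6g* had at most 3 counts in every library. The part of these shifts in the results on sphingolipid genes was not tested, and in bulk RNA fewer cells of a type and less RNA per cell cannot be told apart.

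In all, 7 of the 41 genes differed between the genotypes at an FDR below 0.05, and 33 of the 40 tested genes did not pass that threshold. With 3 libraries of each genotype, missing it does not show that a gene was unchanged. *Glb1*, *Asah2*, *Psap*, *Smpd1* and *Sgms1* rose in *Scd2*-m/-m macrophages, and *Galc* and *Ormdl3* fell. Of the 40 genes that passed the filter on low counts, 5 were higher and 2 were lower, or 17.5%, against 17.5% of all 14778 genes tested (9.65% higher and 7.84% lower). The share was therefore that of all genes tested. Leaving out wild-type replicate 2 or *Scd2*-m/-m replicate 2 took the call from *Galc*, *Ormdl3* and *Smpd1*, so that 4 genes were higher and 0 lower, and took the share of all genes called to 9.83% and 9.53%. Sizes were small. The 40 log2 fold changes ran from -0.46 to 0.55 with a median of -0.01, beside a median of 0.0039 over all genes, and the median absolute value was 0.11 beside 0.16. Only *Glb1* had an absolute log2 fold change above 0.5, a size that 14.6% of all tested genes exceeded. The wild-type and *Scd2*-m/-m libraries did not overlap for 16 of the 40 genes, and for 34.9% of all genes tested, with 9 higher (17.9% of all genes tested) and 7 lower (17%).

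**Figure D1:**
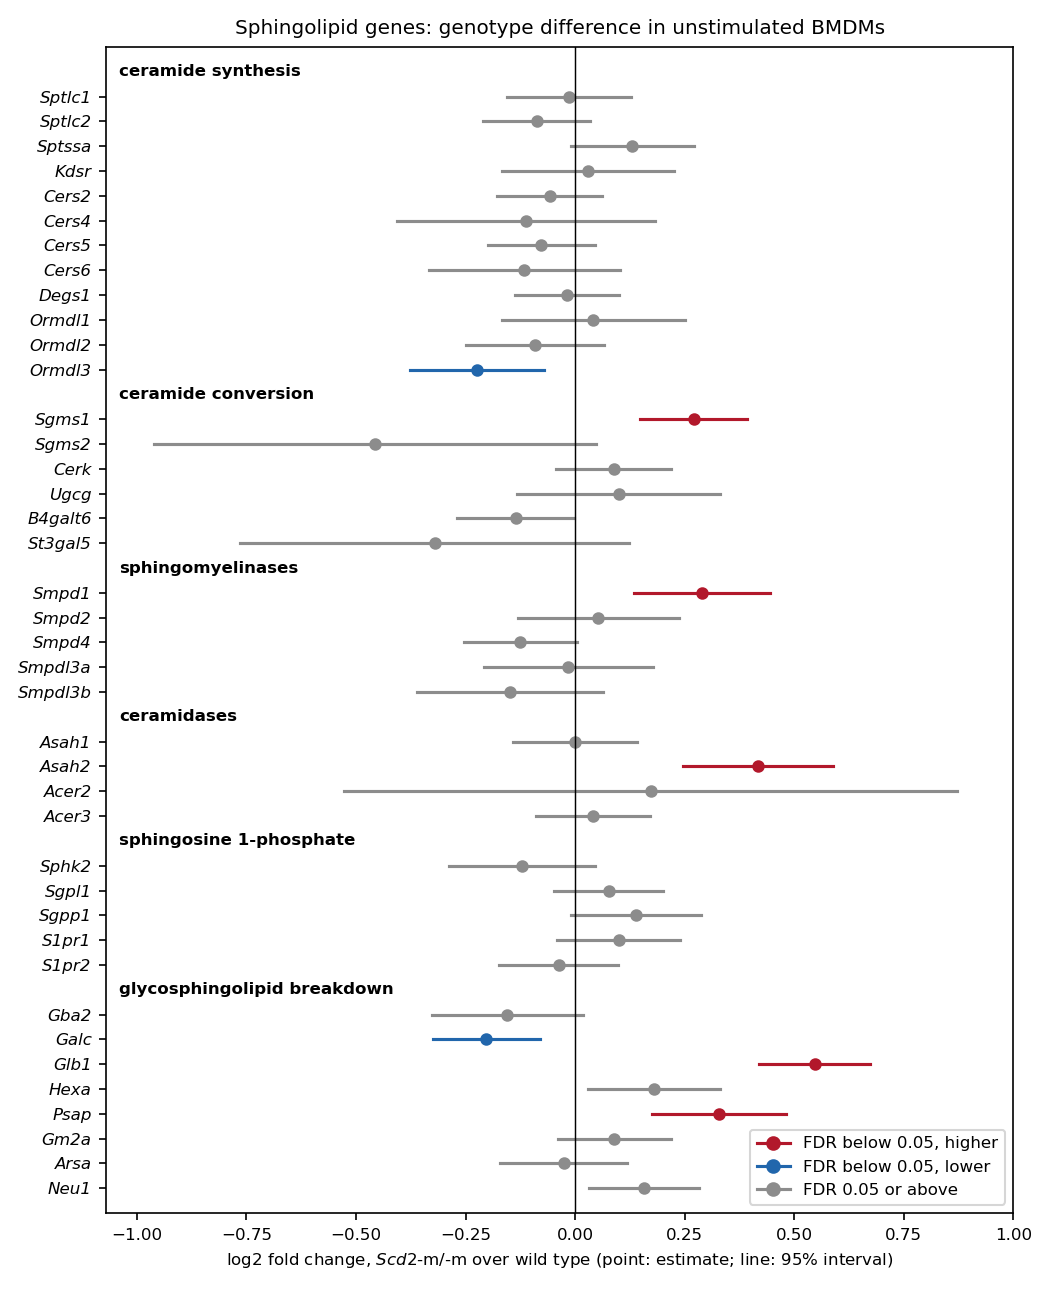
Log2 fold change of each of the 40 tested sphingolipid genes (*Scd2*-m/-m over wild type, horizontal axis) with its 95% interval, ordered by role in the pathway, with genes at an FDR below 0.05 in red (higher) or blue (lower). The 5 genes that rose and the 2 that fell are spread over 5 of the 6 roles, and the intervals of most others include 0.

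Levels of the genes spanned more than 5 orders of magnitude when scaled by length, as counts per kilobase of exon and per library size (RPKM). *Psap*, which encodes the precursor of the saposins, the activator proteins of lysosomal sphingolipid hydrolases, was far ahead with 2869 ± 168 RPKM (SD, n = 3) in wild-type macrophages. It was followed by *Hexa*, the alpha subunit of beta-hexosaminidase A, with 577 ± 33.5 RPKM, and by *Smpdl3a*, a relative of acid sphingomyelinase, with 236 ± 35.7 RPKM. Next came *Asah1* (acid ceramidase), *Gm2a* (the GM2 activator protein) and *Sgpl1* (the lyase that ends the pathway by cleaving sphingosine 1-phosphate), with 135 ± 0.733, 112 ± 4.29 and 103 ± 1.58 RPKM. The order between neighbors was not tested. Each of these 6 genes belongs to the breakdown side of the pathway, with *Smpdl3a* counted there as a relative of a hydrolase. This holds for the full exonic length, whereas with the longest transcript *Cers2*, a ceramide synthase, had 128 RPKM in wild-type macrophages and stood above *Gm2a* with 112 RPKM. On the full exonic length the synthetic arm began with *Cerk* (ceramide kinase) at 80.3 ± 4.09 RPKM, *Cers2* (ceramide synthase) at 77.0 ± 0.663 RPKM and *Degs1* (dihydroceramide desaturase) at 71.8 ± 1.15 RPKM. At the low end were *Cers4* with 0.475 ± 0.0629 RPKM, *Acer2*, an alkaline ceramidase of the Golgi, with 0.0715 ± 0.00349 RPKM, and *Sphk1* with 0.0128 ± 0.00719 RPKM.

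**Figure D2:**
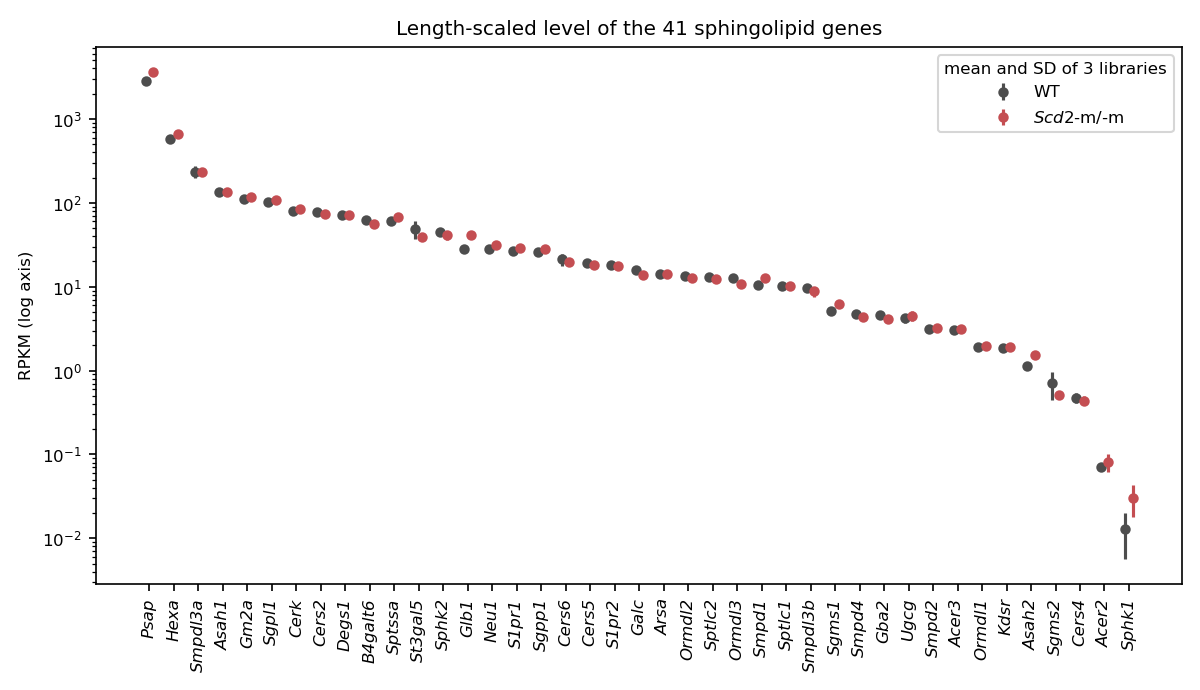
Length-scaled level (RPKM, log axis) of the 41 sphingolipid genes in wild-type (gray) and *Scd2*-m/-m (red) macrophages, mean and SD of 3 libraries, ordered by the wild-type mean. *Psap* and *Hexa* lead in both genotypes, and *Acer2* and *Sphk1* are lowest in both.

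Genes of ceramide synthesis had small log2 fold changes, from -0.22 to 0.13, and 9 of the 12 were negative. All 12 were tested, and 1 fell and none rose by edgeR's test, or 8.33% beside the 17.5% of all genes tested. In the same test 1 had an unadjusted p below 0.05. The libraries of the genotypes did not overlap for 4 of the 12, all lower in *Scd2*-m/-m macrophages. Of all genes tested, 34.9% did not overlap, and 17% did so with lower values. No test was applied to these counts. *Ormdl3* encodes a regulator that restrains serine palmitoyltransferase, the enzyme of the first step. It had 28.0, 27.9 and 26.6 CPM in wild-type and 25.1, 23.6 and 22.0 CPM in *Scd2*-m/-m libraries. All *Scd2*-m/-m libraries were lower, with a mean of 85.6% of wild type. The log2 fold change was -0.22 (SE 0.07, FDR 0.0427). The call was lost without any single library other than *Scd2*-m/-m replicate 1, with an FDR of up to 0.154 when wild-type replicate 2 was left out. Its relatives *Ormdl1* and *Ormdl2* had log2 fold changes of 0.04 (95% interval -0.17 to 0.25) and -0.09 (-0.25 to 0.07). Of the exonic bases of *Ormdl2*, 66.7% overlap the antisense gene *Dnajc14*, and as the use of strand in counting is not given, their reads cannot be told apart.

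The catalytic genes of synthesis had narrow intervals. The serine palmitoyltransferase subunits *Sptlc1* and *Sptlc2* had log2 fold changes of -0.01 (95% interval -0.16 to 0.13) and -0.09 (-0.21 to 0.03), and the small subunit *Sptssa* had 0.13 (-0.01 to 0.27). The reductase *Kdsr*, which acts next, had 0.03 (-0.17 to 0.23), and *Degs1*, which makes ceramide from dihydroceramide, had -0.02 (-0.14 to 0.10). The ceramide synthase with the highest level, *Cers2*, prefers very long acyl chains. It had 286, 281 and 283 CPM in wild-type and 280, 264 and 272 CPM in *Scd2*-m/-m libraries. The *Scd2*-m/-m libraries were all slightly lower, and the log2 fold change was -0.06 (-0.18 to 0.06, FDR 0.532). The other ceramide synthases had log2 fold changes of -0.11 (*Cers4*), -0.08 (*Cers5*) and -0.12 (*Cers6*), each with an interval that included 0. For none of these genes did the interval reach a log2 difference of 0.5 in either direction.

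Which paralogue supplied most of the transcripts was alike in the genotypes. *Cers2* made up 65.3 ± 1.87% (SD, n = 3) of ceramide synthase RPKM in wild-type against 65.9 ± 0.676% in *Scd2*-m/-m macrophages, and *Cers6* and *Cers5*, which use shorter acyl chains, made up 18.0 ± 2.37% and 16.3 ± 0.445% in wild-type macrophages against 17.5 ± 0.536% and 16.2 ± 0.609%. *Cers4* stayed below 1% in every library. *Ormdl2* and *Ormdl3* shared most of the ORMDL transcripts, and the *Ormdl3* share was 45.0 ± 1.63% in wild-type against 42.3 ± 1.63% in *Scd2*-m/-m macrophages, with overlapping libraries. Shares in the ORMDL family are uncertain, as 66.7% of the exonic bases of *Ormdl2* overlap the antisense gene *Dnajc14*. *Dnajc14* had a wild-type mean of 62.5 CPM. *Sphk2* gave over 99.9% of sphingosine kinase RPKM in every library. *S1pr1* gave 59.7 ± 1.79% and 62.0 ± 2.22% of the RPKM of the 2 receptors. With the longest transcript in place of the full exonic length, the leading gene was the same in 5 of the 5 families.

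**Figure D3:**
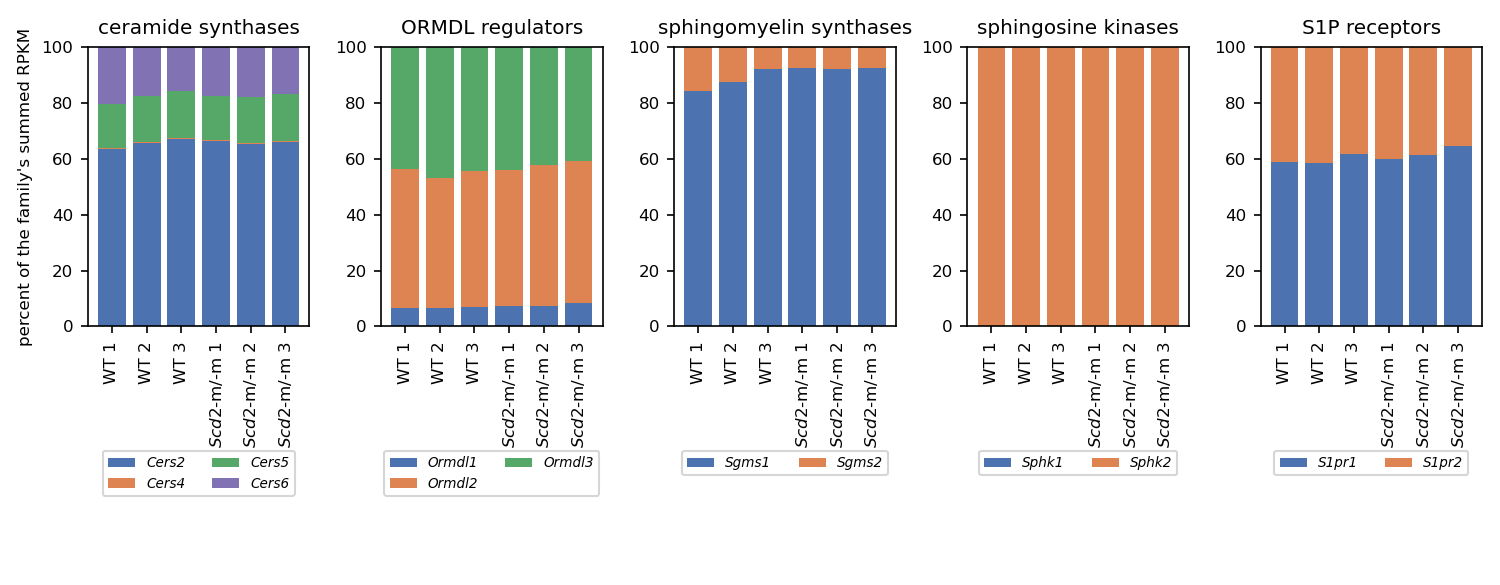
Percent of each family's summed RPKM given by each paralogue, 1 bar per library, in ceramide synthases, ORMDL regulators, sphingomyelin synthases, sphingosine kinases and sphingosine 1-phosphate receptors. *Cers2*, *Sgms1*, *Sphk2* and *S1pr1* lead in every library, and *Sgms2* takes a larger share in wild-type replicates 1 and 2 than in the other 4 libraries.

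Among genes that convert ceramide, *Sgms1* rose. It encodes the sphingomyelin synthase of the Golgi, which moves a phosphocholine head group onto ceramide. *Sgms1* had 54.6, 53.5 and 54.1 CPM in wild-type and 64.7, 64.9 and 66.1 CPM in *Scd2*-m/-m libraries. The groups were tight and separate, with a *Scd2*-m/-m mean of 121% of wild type and a log2 fold change of 0.27 (SE 0.06, FDR 0.00453). *Sgms2*, the synthase of the plasma membrane, had far lower levels that spread widely in wild-type macrophages, at 5.96, 4.53 and 2.71 CPM, and lay at 3.14, 3.34 and 3.15 CPM in *Scd2*-m/-m macrophages. Its lowest library was wild type, so the groups overlapped. The log2 fold change was -0.46 (95% interval -0.96 to 0.05, FDR 0.209), and it rested on the wild-type libraries, at -0.71 (FDR 0.00770) without wild-type replicate 3 and -0.17 (FDR 0.631) without wild-type replicate 1.

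The other converting genes did not pass. *Cerk*, the highest of them per length, had 373, 377 and 409 CPM in wild-type and 423, 405 and 403 CPM in *Scd2*-m/-m libraries. Its libraries overlapped, with a log2 fold change of 0.09 (95% interval -0.04 to 0.22, FDR 0.368). *Ugcg*, which makes glucosylceramide and so opens the glycosphingolipid branch, had 0.10 (-0.13 to 0.33). *B4galt6*, which adds galactose to form lactosylceramide, had -0.14 (-0.27 to -0.0023, FDR 0.158) with no overlap between the genotypes. *St3gal5*, which makes the ganglioside GM3, had 162, 119 and 101 CPM in wild-type and 109, 105 and 92.4 CPM in *Scd2*-m/-m libraries. Wild-type replicate 1 stood above the other 5 libraries, and the log2 fold change of -0.32 (-0.76 to 0.12, FDR 0.300) became -0.46 (FDR 0.0299) without wild-type replicate 3 and -0.11 (FDR 0.429) without wild-type replicate 1.

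Wild-type replicate 1 was also the highest wild-type library for other genes. Of the 40 tested genes, 6 had a highest wild-type library more than 1.25 times the lowest, and in 4 of these wild-type replicate 1 was the highest. The ratios were 2.20 for *Sgms2*, 1.60 for *St3gal5*, 1.39 for *Cers6* and 1.30 for *Smpdl3a*. In the *Scd2*-m/-m libraries 5 of the 40 genes exceeded a ratio of 1.25. Variation was otherwise small, with a median coefficient of variation over the tested genes of 4.55% in wild-type against 4.30% in *Scd2*-m/-m macrophages.

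In the sphingomyelinase group *Smpd1* rose. It encodes acid sphingomyelinase, which hydrolyzes sphingomyelin to ceramide in the lysosome and is also secreted. *Smpd1* had 33.5, 33.8 and 36.9 CPM in wild-type and 45.4, 43.0 and 39.0 CPM in *Scd2*-m/-m libraries. The groups did not overlap, although the nearest libraries were close, and the log2 fold change was 0.29 (SE 0.07, FDR 0.0137), with a mean of 122% of wild type. The FDR was 0.0760 without wild-type replicate 2 and 0.0674 without *Scd2*-m/-m replicate 2. *Smpdl3a*, the highest of the group per length, had 572, 440 and 449 CPM in wild-type and 484, 493 and 466 CPM in *Scd2*-m/-m libraries. The *Scd2*-m/-m values fell inside the wild-type range, and the log2 fold change was -0.02 (95% interval -0.21 to 0.18, FDR 0.932). The neutral sphingomyelinases *Smpd2* and *Smpd4* had log2 fold changes of 0.05 (-0.13 to 0.24) and -0.12 (-0.25 to 0.0043), and *Smpdl3b*, a membrane-anchored relative, had -0.15 (-0.36 to 0.06). Of the exonic bases of *Smpd2*, 20.3% overlap the antisense gene *Mical1*, which had a log2 fold change of 0.26 (FDR 0.0487). Their wild-type means were 14.0 CPM for *Smpd2* and 14.8 CPM for *Mical1*. As the use of strand in counting is not given, reads on the shared bases cannot be told apart.

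Of the 4 ceramidases, which free sphingosine from ceramide, *Asah2* rose. This neutral ceramidase acts at the cell surface and outside the lysosome. *Asah2* had 12.8, 13.8 and 13.3 CPM in wild-type and 17.1, 17.5 and 18.7 CPM in *Scd2*-m/-m libraries. The groups were separate, with a mean of 133% of wild type and a log2 fold change of 0.42 (SE 0.08, FDR 0.00241). *Asah1*, the lysosomal acid ceramidase, was much more abundant, with 456, 460 and 459 CPM in wild-type and 429, 448 and 497 CPM in *Scd2*-m/-m libraries. The *Scd2*-m/-m libraries lay on both sides of the wild-type values, and the 95% interval of the log2 fold change ran from -0.14 to 0.14 (FDR 0.996). The *Asah2* count was 0.0290 ± 0.00101 of the *Asah1* count in wild-type against 0.0389 ± 0.00124 in *Scd2*-m/-m macrophages (SD, n = 3), a ratio chosen with the values known. The alkaline ceramidases *Acer3* and *Acer2* had log2 fold changes of 0.04 (-0.09 to 0.17) and 0.17 (-0.53 to 0.87), the latter from a mean of 0.512 CPM.

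*Asah2* and *Sgms1*, both higher, are neighbors. They lie on the minus strand of chromosome 19, *Asah2* at chr19:31982597-32108211 and *Sgms1* at chr19:32122727-32389714 (GRCm38), with 14515 bases between them. *Scd2* is on the same chromosome, 11.9 Mb farther on. Of the 9 tested genes within 1 Mb of *Asah2*, *Sgms1* was the only gene called, and *Asah2* was the only gene called of the 9 around *Sgms1*. Over chromosome 19 as a whole, 18.7% of 518 tested genes were called, 40 higher and 57 lower.

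None of the genes that make, clear or sense sphingosine 1-phosphate passed the test. Of 5 tested genes 0 were called by edgeR or by DESeq2, beside 17.5% and 18.3% of all genes tested. Also, 0 had an unadjusted p below 0.05 in edgeR's quasi-likelihood test. A group of 5 genes is too small to set these counts apart from the shares of all genes. *Sgpl1*, the highest, had 632, 625 and 644 CPM in wild-type and 666, 672 and 666 CPM in *Scd2*-m/-m libraries. All *Scd2*-m/-m libraries were above all wild-type libraries, but by a log2 fold change of only 0.08 (95% interval -0.05 to 0.20, FDR 0.407). The phosphatase *Sgpp1* had 0.14 (-0.01 to 0.29), and the receptors *S1pr1* and *S1pr2* had 0.10 (-0.04 to 0.24) and -0.04 (-0.17 to 0.10). The kinase *Sphk2* had -0.12 (-0.29 to 0.05), and of its exonic bases 13.0% overlap *Dbp* and 8.97% overlap *Rpl18* on the other strand. In wild-type macrophages *Rpl18* had a mean of 375 CPM and *Sphk2* one of 185 CPM. The log2 fold changes were -0.21 (FDR 0.0236) for *Rpl18* and -0.14 (FDR 0.853) for *Dbp*. As the use of strand in counting is not given, reads on the shared bases cannot be told apart. The *Sphk2* value was -0.22 (FDR 0.0303) without *Scd2*-m/-m replicate 1 and -0.050 (FDR 0.721) without *Scd2*-m/-m replicate 3. *Sphk1*, the other kinase, did not pass the filter, with 5, 2 and 2 counts in wild-type and 12, 6 and 6 counts in *Scd2*-m/-m libraries.

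Breakdown of glycosphingolipids comes last in this order. Of its 8 genes 2 rose and 1 fell, or 37.5% beside the 17.5% of all genes tested, a difference to which no test was applied and which rests in part on *Galc*, whose call depended on single libraries. *Glb1*, which removes the terminal galactose of the ganglioside GM1 in the lysosome, changed most of all 40 tested genes. *Glb1* had 81.5, 85.5 and 89.6 CPM in wild-type and 127, 125 and 122 CPM in *Scd2*-m/-m libraries. The groups were far apart compared with their spread, with a mean of 146% of wild type and a log2 fold change of 0.55 (SE 0.06, FDR 2.52e-05). *Tmppe*, which shares 5.49% of the exonic bases of *Glb1* on the same strand, moved the other way, with a log2 fold change of -0.27 (FDR 0.0090).

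*Psap* rose from a level that was already the highest. *Psap* had 7546, 7668 and 8400 CPM in wild-type and 10081, 9938 and 9626 CPM in *Scd2*-m/-m libraries. Every *Scd2*-m/-m library was above every wild-type library, with a mean of 126% of wild type and a log2 fold change of 0.33 (SE 0.07, FDR 0.00591). *Galc* went down. It removes galactose from galactosylceramide, a lipid best known from myelin. *Galc* had 237, 240 and 235 CPM in wild-type and 196, 213 and 210 CPM in *Scd2*-m/-m libraries. The groups did not overlap, and the log2 fold change was -0.20 (SE 0.06, FDR 0.0256), with an FDR of 0.124 without wild-type replicate 2, 0.0694 without *Scd2*-m/-m replicate 1 and 0.0771 without *Scd2*-m/-m replicate 2. The count ratio of *Glb1* to *Galc*, 2 lysosomal galactosidases, was 0.360 ± 0.0194 in wild-type against 0.606 ± 0.0374 in *Scd2*-m/-m macrophages (SD, n = 3), a pair chosen with the values known.

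**Figure D4:**
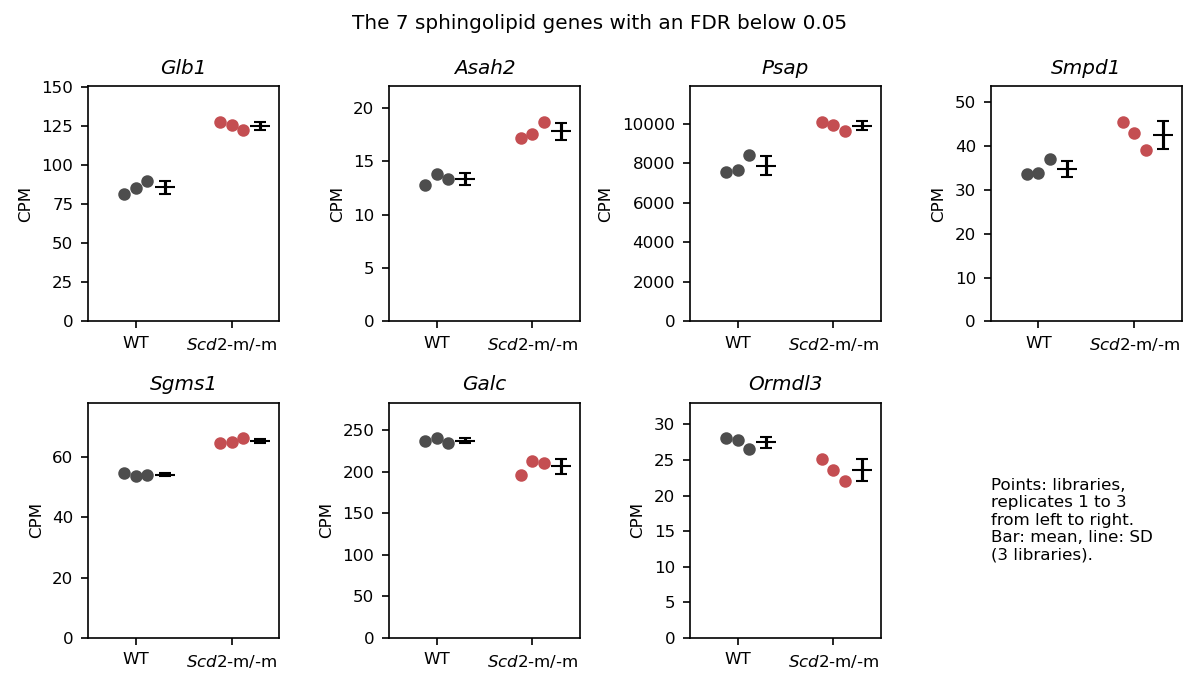
CPM in each library of the 7 sphingolipid genes with an FDR below 0.05, wild type in gray and *Scd2*-m/-m in red, with the mean and SD of 3 libraries beside the points and each vertical axis starting at 0. In each of the 7 panels the libraries of the genotypes are separate, with the widest gap for *Glb1* and narrow gaps for *Smpd1* and *Ormdl3*.

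The remaining breakdown genes fell short of the threshold. *Hexa* had 1082, 1157 and 1215 CPM in wild-type and 1274, 1250 and 1389 CPM in *Scd2*-m/-m libraries, with a log2 fold change of 0.18 (95% interval 0.03 to 0.33, FDR 0.0953). The sialidase *Neu1* had 109, 101 and 102 CPM against 120, 116 and 111 CPM, with 0.16 (0.03 to 0.28, FDR 0.0843). In both genes the *Scd2*-m/-m libraries lay above the wild-type libraries and the unadjusted p was below 0.05. *Gm2a* had a log2 fold change of 0.09 (-0.04 to 0.22), *Arsa* (arylsulfatase A, which desulfates sulfatide) had -0.03 (-0.17 to 0.12), and *Gba2*, the glucosylceramidase outside the lysosome, had -0.15 (-0.33 to 0.02).

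A further 38 genes of the pathway were read from the table, of which 22 were tested, 2 rose and 1 fell, or 13.6% beside the 17.5% of all genes tested. *Gla*, which removes the terminal galactose of globotriaosylceramide, had 96.7, 81.2 and 81.3 CPM in wild-type and 112, 121 and 116 CPM in *Scd2*-m/-m libraries, a log2 fold change of 0.43 (SE 0.07, FDR 9.74e-04). The genotypes did not overlap. *B4galnt1*, which makes GM2 from GM3, rose by a log2 fold change of 0.27 (SE 0.08, FDR 0.0250), and *Abcc1*, an exporter that carries sphingosine 1-phosphate among other substrates, had a log2 fold change of -0.24 (SE 0.06, FDR 0.0189). The libraries of *B4galnt1* and *Abcc1* did not overlap either, though the nearest *B4galnt1* libraries were at 114 CPM in both genotypes. The call of *B4galnt1* was lost without wild-type replicates 2 or 3 or *Scd2*-m/-m replicates 1 or 2 (FDR of up to 0.126), and that of *Abcc1* without wild-type replicates 1 or 2 or *Scd2*-m/-m replicates 2 or 3 (FDR of up to 0.0822).

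Several further genes were below detection or low. *Sptlc3*, *Sptssb*, *Fa2h*, *Ugt8a* and *Neu4* had 0 counts in every library. *Ugt8a* makes galactosylceramide, on which the enzyme encoded by *Galc* acts. The transporters that release sphingosine 1-phosphate, *Spns2* and *Mfsd2b*, had mean levels of 0.430 and 0.776 CPM in wild-type macrophages and did not pass the test. Both had a log2 fold change of -0.71 (FDR 0.272 and 0.157). Their libraries did not overlap, as was the case for 34.9% of all genes tested. Of the exonic bases of *Spns2*, 3.21% overlap the antisense gene *Mybbp1a*, which had a wild-type mean of 106 CPM. *Smpd3*, a neutral sphingomyelinase, had a log2 fold change of -0.67 (95% interval -1.20 to -0.15, FDR 0.0830), with overlapping libraries. Of its exonic bases, 4.72% overlap the antisense gene *Prmt7*. In wild-type macrophages *Prmt7* had a mean of 14.9 CPM and *Smpd3* one of 7.06 CPM. The log2 fold change of *Prmt7* was -0.72 (FDR 3.35e-04). As the use of strand in counting is not given, reads on the shared bases of either pair cannot be told apart.

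Lysosomal hydrolases and their activators can be read side by side across both lists of genes. This grouping of 10 genes was made after the values were seen, and no test was applied to it. Of the 10, 4 rose (*Glb1*, *Gla*, *Psap* and *Smpd1*), *Galc* fell (17.5% of all genes tested were called), and *Hexa*, *Neu1*, *Gm2a*, *Asah1* and *Arsa* did not pass. Their median log2 fold change was 0.17, beside 0.0039 over all tested genes, and 8 of the 10 had libraries that did not overlap, as did 34.9% of all genes tested. As the genes were grouped with these values in view, the counts say nothing about lysosomal genes in general. The 31 tested members outside this group held 2 genes that rose (*Asah2* and *Sgms1*) and 1 that fell (*Ormdl3*), with a median log2 fold change of -0.02.

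**Figure D5:**
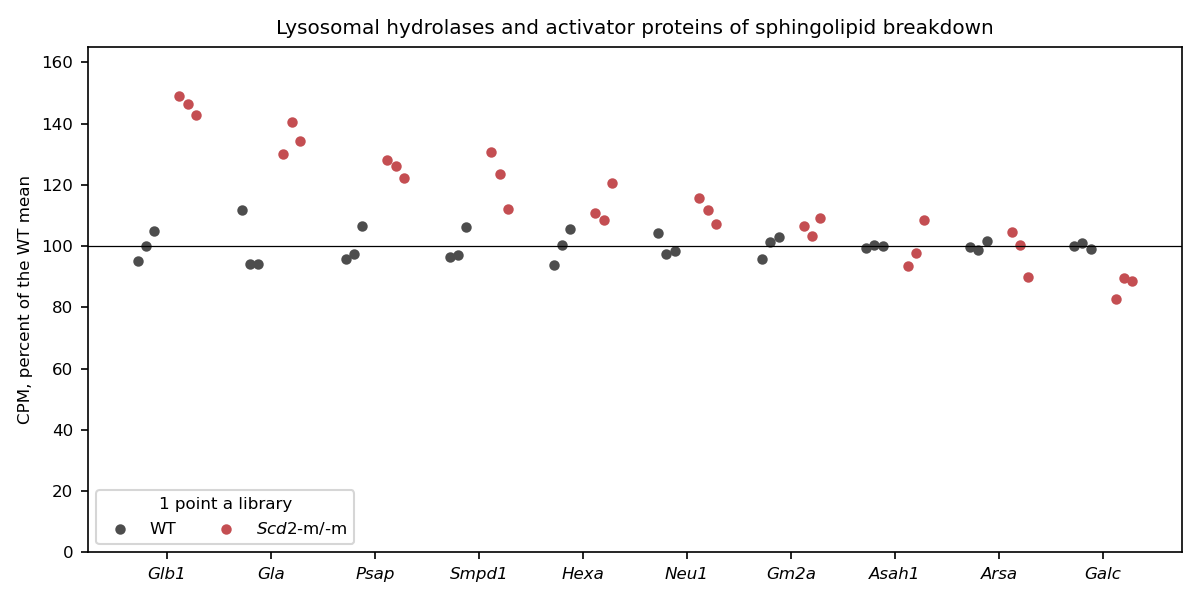
CPM of 10 lysosomal hydrolases and activators in each library as a percent of the gene's wild-type mean, wild type in gray and *Scd2*-m/-m in red, ordered by the *Scd2*-m/-m mean. *Glb1* is farthest above the line at 100%, the 4 genes that rose are on the left, and *Galc* is the gene whose *Scd2*-m/-m libraries all lie below it.

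Promoters of 3 genes that changed are shown because they differ in the hexamer CACGTG, an E-box that is part of the element bound by MiT/TFE factors at many lysosomal genes. Each window runs from 250 bases before to 50 bases after a RefSeq start (GRCm38.p6), 5′ to 3′ on the gene's strand, with the hexamer in capitals. The hexamer reads the same on both strands. *Glb1*, higher, is shown from chr9:114400828-114401127 on the plus strand. *Asah2*, higher, is shown from chr19:32103091-32103390 on the minus strand, a start inside the annotated GENCODE gene. *Galc*, lower, is shown from chr12:98259410-98259709 on the minus strand.
Glb1: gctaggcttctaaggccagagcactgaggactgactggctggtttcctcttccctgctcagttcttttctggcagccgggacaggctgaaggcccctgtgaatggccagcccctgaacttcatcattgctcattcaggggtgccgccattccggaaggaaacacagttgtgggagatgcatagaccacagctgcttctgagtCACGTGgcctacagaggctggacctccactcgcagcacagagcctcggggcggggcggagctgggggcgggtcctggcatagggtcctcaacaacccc
Asah2: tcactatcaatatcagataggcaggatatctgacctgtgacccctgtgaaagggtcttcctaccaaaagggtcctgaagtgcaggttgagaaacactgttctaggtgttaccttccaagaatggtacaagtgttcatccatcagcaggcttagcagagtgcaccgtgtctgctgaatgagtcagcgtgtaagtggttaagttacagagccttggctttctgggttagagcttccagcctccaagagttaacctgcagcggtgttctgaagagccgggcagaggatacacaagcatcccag
Galc: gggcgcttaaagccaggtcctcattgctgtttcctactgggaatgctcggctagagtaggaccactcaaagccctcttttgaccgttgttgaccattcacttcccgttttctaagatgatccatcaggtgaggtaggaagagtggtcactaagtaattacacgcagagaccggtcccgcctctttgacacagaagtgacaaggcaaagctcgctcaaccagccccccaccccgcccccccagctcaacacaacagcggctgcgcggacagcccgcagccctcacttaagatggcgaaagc
The hexamer occurred once in the *Glb1* window, from base 203, and in neither of the other 2 windows. Windows were found for 37 of the 41 genes, without *Asah1*, *B4galt6*, *S1pr1* and *Smpdl3a*. It was present in 9 of these 37 (24.3%), namely *Arsa*, *Cers2*, *Cers6*, *Degs1*, *Glb1*, *Sgms2*, *Smpd2*, *Smpdl3b* and *Sphk1*, beside 8.09% of the 27025 genes with a window. Among the 7 genes that changed, only *Glb1* had it. No test was applied to these shares, and a match is a string of letters and not a measured site.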

How the data were processed

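Libraries of unstimulated BMDMs were compared, 3 wild-type and 3 *Scd2*-m/-m, grouped by their labels. Reads had been aligned by STAR against Ensembl's mouse primary assembly, and what the authors deposited are raw gene counts, in whole numbers and not normalized. For the counting step (tool, version, strand) nothing is given in the sources used here. Between 60.9% and 64.9% of counts from 1 to 20 were even, so what 1 count stands for is unclear. The average number of reads per sample that the study reported is also below the smallest library total of counts. A second deposited table holds the authors' own comparison (log2 fold changes, p-values and adjusted p-values) and was not used.

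The 40757 entries held 276 repeats, which were removed to leave 40481 genes. Lengths, coordinates and overlaps came from GENCODE vM21 (GRCm38), which covered 99.7% of genes. Counts were tested in R 4.3.3 with edgeR 4.0.16 (filterByExpr on genotype, TMM factors of 0.979 to 1.02, robust glmQLFit, glmQLFTest), two-sided, with Benjamini-Hochberg adjustment (FDR) over 14778 genes and a threshold of 0.05. SE is the log2 fold change over the root of F, and intervals are at 95%. CPM used TMM-scaled library sizes, and RPKM also the exonic length. At 46285176 to 57629638 counts per library, genes below 1 CPM rest on few counts, which limits their precision. The chi-square between replicates was 10.4 to 31.4 per gene, above sampling noise.

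All 41 members and called genes among 38 further pathway genes are named, and some genes of the wider list are not reported here. The members and lists were chosen with earlier results of these data known. The 15 alternatives were RLE and upper-quartile factors, DESeq2 1.42.0, limma-voom (limma 3.58.1) with and without quality weights, no filter, 10 counts in every library, halved counts, a replicate block and leaving out each library. The edgeR script was tested on simulated counts. Other marker lists (B cell, T and NK cell, erythroid, mast cell and basophil, dendritic cell, osteoclast, fibroblast, endothelial) were also read from the fit.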

Additional observations from a re-analysis of the deposited data

How the results depend on the processing

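*Glb1*, *Asah2*, *Psap* and *Sgms1* passed the threshold in each of the 15 alternatives, as did *Gla*. *Smpd1* did so in 13, *Galc* in 12, *Ormdl3* in 9, and *B4galnt1* and *Abcc1* in 11. Of the 33 tested members that were not called, 8 were called in at least 1 alternative. Upper-quartile factors left 1 member lower, as *Ormdl3* had an FDR of 0.0556. Quality weights in limma-voom raised the calls over all genes to 4585 (2372 higher, 2213 lower, 31.0% of genes), the members to 8 higher and 4 lower, and the further genes to 4 higher and 3 lower. The further genes that fell numbered 2 with DESeq2, with no filter and with the replicate block. Replicate numbers are not stated to pair the samples. Correlations of same-numbered deviations were 0.0530, -0.0196 and 0.0398, and those of differently numbered ones ran from -0.074 to 0.0409. Not every sample correlated best with its own number. Values this near 0 do not decide whether the numbers pair samples. With the replicate block 2974 genes were called (2585 without it), and 7 members rose and 3 fell, with *Hexa* (FDR 0.0389), *Neu1* (FDR 0.0496) and *St3gal5* (FDR 0.0154) added. With each library left out in turn, calls over all genes ranged from 1440 to 2567, with 869 to 1392 higher and 571 to 1175 lower. The fewest were without *Scd2*-m/-m replicate 2 (1440) and wild-type replicate 2 (1490). Members higher ranged from 4 to 5, members lower from 0 to 3, further genes higher from 1 to 2 and further genes lower from 0 to 1. The median wild-type level of the members was 16.0 RPKM, and 22.6 RPKM with the longest transcript as length.

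Log2 fold changes near 0 changed sign in 11 members, none of them called. *Asah1* became 0.0074 with upper-quartile factors, 0.00053 with no filter, 0.0047 with 10 counts in every library and 0.0048 with halved counts. With quality weights *Kdsr* became -0.030 and *Smpdl3a* 0.078. With libraries left out, the log2 fold changes ranged from -0.063 to 0.044 for *Asah1*, from -0.046 to 0.075 for *Kdsr*, from -0.084 to 0.12 for *Smpdl3a*, from -0.055 to 0.028 for *Sptlc1* and from -0.22 to 0.020 for *Cers6*. They ranged from -0.043 to 0.00091 for *Degs1*, from -0.030 to 0.31 for *Acer2*, from -0.0099 to 0.080 for *Ormdl1*, from -0.014 to 0.21 for *Ugcg*, from -0.085 to 0.0077 for *S1pr2* and from -0.074 to 0.034 for *Arsa*. The cause of these changes was not tested. Depth limits what can be said of *Sphk1* and *Acer2*, and the number of libraries limits the small differences of the rest.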

Other observations

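Markers of other cell types were read from the same libraries, since BMDM cultures can hold other marrow cells. B cell markers were low, 2 of 3 tested were higher in *Scd2*-m/-m macrophages, and their sums ranged from 2.18 to 3.79 CPM in wild-type and from 5.37 to 7.24 CPM in *Scd2*-m/-m libraries. Dendritic cell markers summed to between 1.15 and 1.71 CPM against between 1.73 and 2.89 CPM, with 1 of 5 tested higher. Osteoclast markers summed to between 64.3 and 84.4 CPM against between 41.1 and 42.3 CPM, with 1 higher (*Ctsk*) and 1 lower (*Mmp9*) of 5 tested, and without *Mmp9* the sums were 21.2 to 25.5 CPM against 23.6 to 26.5 CPM. T and NK cell, erythroid, mast cell and basophil, and fibroblast markers had sums of at most 4.17 CPM in every library with none called by edgeR, and endothelial markers had sums of 9.63 to 10.5 CPM with 1 lower of 3 tested, and without *Kdr*, the highest, the sums were 3.07 to 3.32 CPM in wild-type against 1.38 to 1.58 CPM in *Scd2*-m/-m libraries. The part of these markers in the differences of sphingolipid genes was not tested.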
